A study of Mus musculus with 200 samples.

Results

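Histone deacetylases remove acetyl groups from lysines of histones and other proteins, and at many promoters and enhancers they act as corepressors. The zinc-dependent enzymes fall into class I (Hdac1, Hdac2, Hdac3 and Hdac8, mostly nuclear), class IIa (Hdac4, Hdac5, Hdac7 and Hdac9, which move between nucleus and cytoplasm and bind MEF2 transcription factors), class IIb (Hdac6, a cytoplasmic tubulin deacetylase) and class IV (Hdac11). In neurons, calcium-dependent and salt-inducible kinases set the location of the class IIa members, and Hdac1 and Hdac2 are the catalytic subunits of the Sin3, NuRD and CoREST complexes.

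The 10 genes described here, of 56941 in the gene table, were found by their symbols. The family was selected because Hdac9 was already known, from an earlier look at these data, as one of the most reduced genes 9 h after closed-head injury (CHI) in C57BL/6J mice. The values that chose the members are therefore those of CHI against sham, and they are given below as a description without p-values. All 10 genes passed the filter on low counts in each of the 12 comparisons of CHI with sham.

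Messenger RNA of one brain hemisphere was sequenced in 200 mice of both sexes aged 3.3 to 7.67 months, 67 after sham surgery, in which anaesthesia and scalp incision were given without impact, and all others after a single CHI. Mice were studied at 9 h (n = 68), 24 h (n = 65) or 72 h (n = 67). They were C57BL/6J (n = 61) or of strains labelled IL-1R1 gKO (n = 55), IL-1R1 eRestore (n = 50) and IL-1R1 nRestore (n = 34). The labels do not say which alleles or drivers these 3 names stand for, and they are used here as names only. CHI and sham groups held 15 and 6 C57BL/6J mice at 9 h and 14 and 6 at each later time. The IL-1R1 gKO groups held 13 and 6, 12 and 6, and 12 and 6 mice at 9, 24 and 72 h, the IL-1R1 eRestore groups 12 and 6, 9 and 5, and 12 and 6, and the IL-1R1 nRestore groups 6 and 4, 8 and 5, and 6 and 5. The IL-1R1 nRestore mice at 72 h were all male, so sex was left out of that fit.

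Depth, as the sum of estimated counts of a mouse, lay between 14857985 and 57355676 (median 20258936), and no member had fewer than 80 estimated counts in any mouse. Transcripts of the mitochondrial genome made up 15.2 to 16.4% of TPM in the means by time and surgery. Il1r1, the gene named in 3 strain labels, averaged 1.47 to 2.91 TPM in the C57BL/6J groups and 3.19 to 4.77 TPM in the IL-1R1 gKO groups, so its transcript was not lower in the mice labelled gKO. A count per gene does not show which exons were read and does not test the allele. Mice at 9 h came from 3 experiments and later mice from 5 others, with 0 experiments shared. Surgery took place in the morning, so the hour of day at tissue collection also differed between 9 h and the later times. Time after surgery, experiment and hour of day cannot be told apart.

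On the GRCm39 assembly with the GENCODE annotation, Hdac9 (ENSMUSG00000004698) is a protein-coding gene at chr12:34097579-34967094 on the minus strand. It spans 870 kb and has 42 annotated transcripts, and 5 other annotated genes lie within it on the same strand and 3 on the other. Hdac5 (ENSMUSG00000008855) lies at chr11:102085245-102121072 on the minus strand, spans 35.8 kb and has 83 annotated transcripts; it shares bases with G6pc3 on the other strand. Hdac8 (ENSMUSG00000067567) lies at chrX:101328244-101549026 on the minus strand. Hdac11 (ENSMUSG00000034245) lies at chr6:91133642-91151695 on the plus strand, and Hdac7 (ENSMUSG00000022475) at chr15:97687372-97742383 on the minus strand, overlapping Slc48a1 on the other. The strandedness of the libraries is not given in the sources used here, so reads of overlapping genes on opposite strands may be shared. Hdac1 has a processed pseudogene in the table, and its counts may be split with that copy.

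Promoter sequences are shown for Hdac9 and Hdac5, the members with the largest differences at 9 h. They are RefSeq windows on GRCm38.p6, an earlier build than that of the count table, and run from 250 bases before to 50 bases after a transcription start, 5′ to 3′ on the gene's strand. RefSeq windows were used for 8 of the 10 members, and none was used for Hdac1 or Hdac3. Capitals mark matches on either strand to a cAMP response element (TGACGTCA), an E-box (CACGTG), an AP-1 site (TGANTCA) or the MEF2 consensus.
Hdac9, upstream start, chr12:34917046-34917345: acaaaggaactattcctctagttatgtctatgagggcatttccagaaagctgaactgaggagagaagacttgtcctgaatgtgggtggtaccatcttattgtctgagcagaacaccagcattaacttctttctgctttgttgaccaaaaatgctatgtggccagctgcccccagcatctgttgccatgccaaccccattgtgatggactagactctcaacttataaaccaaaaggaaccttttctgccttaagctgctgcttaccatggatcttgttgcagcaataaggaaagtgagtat
Hdac9, downstream start, chr12:34528840-34529139: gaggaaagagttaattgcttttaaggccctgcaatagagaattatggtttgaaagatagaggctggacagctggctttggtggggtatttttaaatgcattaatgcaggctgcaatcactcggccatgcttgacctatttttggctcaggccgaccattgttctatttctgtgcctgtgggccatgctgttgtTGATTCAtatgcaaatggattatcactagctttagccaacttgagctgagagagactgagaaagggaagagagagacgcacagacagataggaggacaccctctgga
Hdac5, chr11:102230123-102230422: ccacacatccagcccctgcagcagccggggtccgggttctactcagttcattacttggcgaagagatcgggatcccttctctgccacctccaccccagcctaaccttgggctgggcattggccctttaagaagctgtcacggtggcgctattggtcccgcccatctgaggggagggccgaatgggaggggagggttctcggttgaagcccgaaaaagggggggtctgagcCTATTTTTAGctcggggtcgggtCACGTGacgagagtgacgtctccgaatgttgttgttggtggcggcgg

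The upstream Hdac9 window held 0 matches to the 4 motifs, and the downstream one held 1 AP-1 match, 57 bases before the start. The Hdac5 window held 1 MEF2 match, beginning 20 bases before the start, and 1 E-box beginning at base 4 of the transcript, and these matches did not overlap. Among 32851 RefSeq promoter windows of mouse genes, 7.81% held the AP-1 letters, 7.15% the E-box, 3.19% the MEF2 consensus and 1.79% the cAMP response element. These matches describe the letters only. Guanine and cytosine made up 44% and 45.3% of the upstream and downstream Hdac9 windows and 60.7% of the Hdac5 window.

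The levels of the 10 genes were compared per length, as TPM over all 200 mice. Hdac11 (121.5 ± 14.1 TPM, mean ± SD, n = 200) and Hdac5 (115.9 ± 26.4 TPM) were the most abundant, and neighbours in this order overlapped, with Hdac11 above Hdac5 in 116 of 200 mice. Hdac2 followed at 83.2 ± 8.33 TPM and Hdac3 at 56.4 ± 7.01 TPM. Hdac2 was above Hdac3 in all but 2 mice, and Hdac3 was above Hdac1 in all 200.

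A lower tier held Hdac1 (23.8 ± 3.2 TPM), Hdac4 (23.6 ± 4.67 TPM), Hdac6 (17.9 ± 2.85 TPM) and Hdac9 (17.2 ± 3.43 TPM). Hdac1 was above Hdac4 in 108 of 200 mice and Hdac6 above Hdac9 in 113, so neither pair could be ordered beyond its spread. These orders pool sham and CHI mice, and some turned between them in C57BL/6J mice at 9 h. Hdac9 averaged 22 ± 3.43 TPM against 15.9 ± 1.87 TPM for Hdac6 in sham mice (n = 6), and 11.2 ± 1.99 against 15 ± 1.94 TPM in CHI mice (n = 15). Hdac5 averaged 118.8 ± 38.5 TPM against 97.4 ± 10.2 TPM for Hdac11 in sham mice, and 80.7 ± 19.7 against 112.5 ± 20.4 TPM in CHI mice. Hdac8 (11.2 ± 2.2 TPM) and Hdac7 (8.57 ± 3.28 TPM) were lowest. Of the summed TPM of the 10 genes, Hdac11 took 25.4% and Hdac5 24% on average, against 3.57% for Hdac9 and 1.76% for Hdac7.

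**Figure D1:**
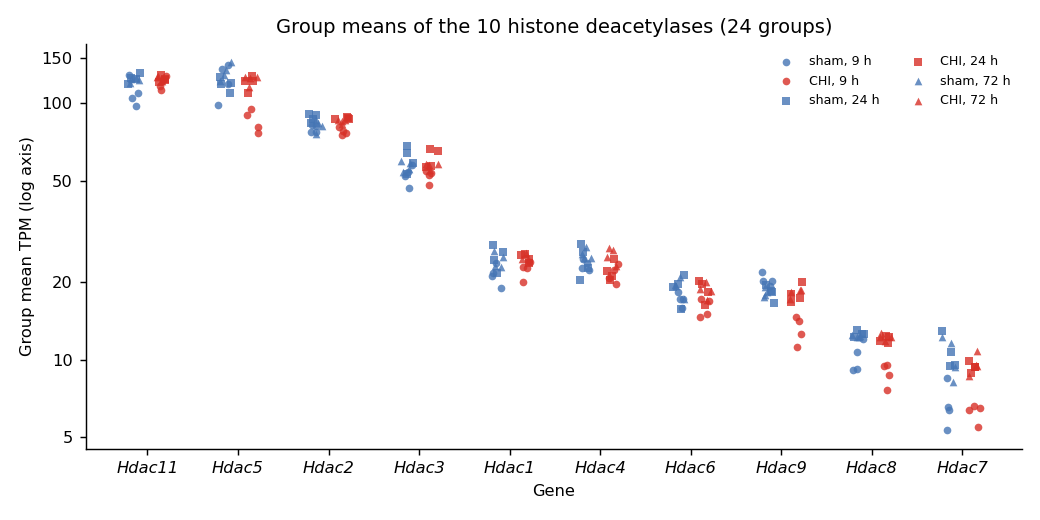
Group mean TPM (log axis) of each histone deacetylase, with 1 point for each of 24 groups of strain, time and surgery, sham in blue and CHI in red. The group means of Hdac9 ran from 11.2 to 22 TPM and those of Hdac5 from 76.6 to 144.6 TPM, and the lowest points of both genes are CHI groups at 9 h.

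Of the class IIa members, Hdac9 differed most between CHI and sham mice at 9 h over all strains, and in each strain but IL-1R1 eRestore, where Hdac5 had the lower log2 fold change. Hdac9 restrains MEF2-dependent transcription in muscle and neurons. The values below are TMM-scaled CPM, that is, counts relative to the size of each library. In C57BL/6J sham mice Hdac9 had a lowest, median and highest CPM of 47, 58.3 and 65.2 (n = 6), and in CHI mice of 24.5, 31.9 and 40.8 (n = 15). The highest of the 15 CHI mice was thus under the lowest of the 6 sham mice.

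In IL-1R1 eRestore mice the sham values of Hdac9 were 47.7, 52.3 and 55.7 CPM (n = 6) and the CHI values 31.3, 35.9 and 46.2 CPM (n = 12), again without overlap. Per length these 2 groups overlapped, at 16.3 to 21.4 TPM in sham and 11.1 to 17.9 TPM in CHI mice. Those of C57BL/6J and of IL-1R1 nRestore mice did not overlap per length. In IL-1R1 nRestore mice the 4 sham values were 47.7, 53.5, 55.4 and 50.7 CPM and the CHI values 24.3, 36 and 40.4 CPM (n = 6), without overlap. In IL-1R1 gKO mice the sham values were 43, 53.1 and 64.6 CPM (n = 6) and the CHI values 25.7, 39.9 and 48.1 CPM (n = 13), and 3 of the 13 CHI mice lay within the sham range.

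The log2 fold change of Hdac9 at 9 h was −0.87 ± 0.08 (SE) in C57BL/6J, −0.43 ± 0.10 in IL-1R1 gKO, −0.47 ± 0.06 in IL-1R1 eRestore and −0.69 ± 0.14 in IL-1R1 nRestore mice. Over all strains it was −0.61 ± 0.05. The order of the 4 strains is described here only, and their differences are given further on.

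Hdac5, which is exported from the nucleus when neurons are active, was the other class IIa member with lower values at 9 h. In C57BL/6J sham mice it had a lowest, median and highest CPM of 99.9, 117.5 and 131.8 (n = 6), and in CHI mice of 53.2, 76.3 and 95.4 (n = 15), without overlap. In IL-1R1 nRestore mice the 4 sham values of Hdac5 were 127.03, 138.78, 117.3 and 120.12 CPM and the CHI values 68.5, 97.4 and 112.8 CPM (n = 6), again without overlap. Per length the C57BL/6J groups overlapped, at 81.7 to 193.1 TPM in sham and 54.7 to 108.7 TPM in CHI mice. The IL-1R1 nRestore groups did not overlap per length.

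The groups of the other strains overlapped for Hdac5. In IL-1R1 eRestore mice its sham values were 109.3, 132.2 and 166.1 CPM (n = 6) and its CHI values 67.3, 94.2 and 118.5 CPM (n = 12). In IL-1R1 gKO mice they were 82.1, 126.9 and 149.5 CPM (n = 6) and 73.2, 97.8 and 120.4 CPM (n = 13), and 10 of the 13 CHI mice lay within the sham range. A single sham mouse set the lower end of that range.

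The log2 fold change of Hdac5 was −0.65 ± 0.08 in C57BL/6J, −0.35 ± 0.11 in IL-1R1 gKO, −0.55 ± 0.11 in IL-1R1 eRestore and −0.36 ± 0.13 in IL-1R1 nRestore mice, and −0.50 ± 0.06 over all strains. Its effective length, the ratio of counts to TPM relative to the other genes of a mouse, differed between CHI and sham groups at 9 h by a factor of 0.924 to 1.16 in the 4 strains, which follows the mix of long and short transcripts. For Hdac9 this factor was 1 to 1.07. With gene-length offsets in DESeq2 the log2 fold change of Hdac5 was −0.57 in IL-1R1 gKO and −0.15 in IL-1R1 nRestore mice.

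**Figure D2:**
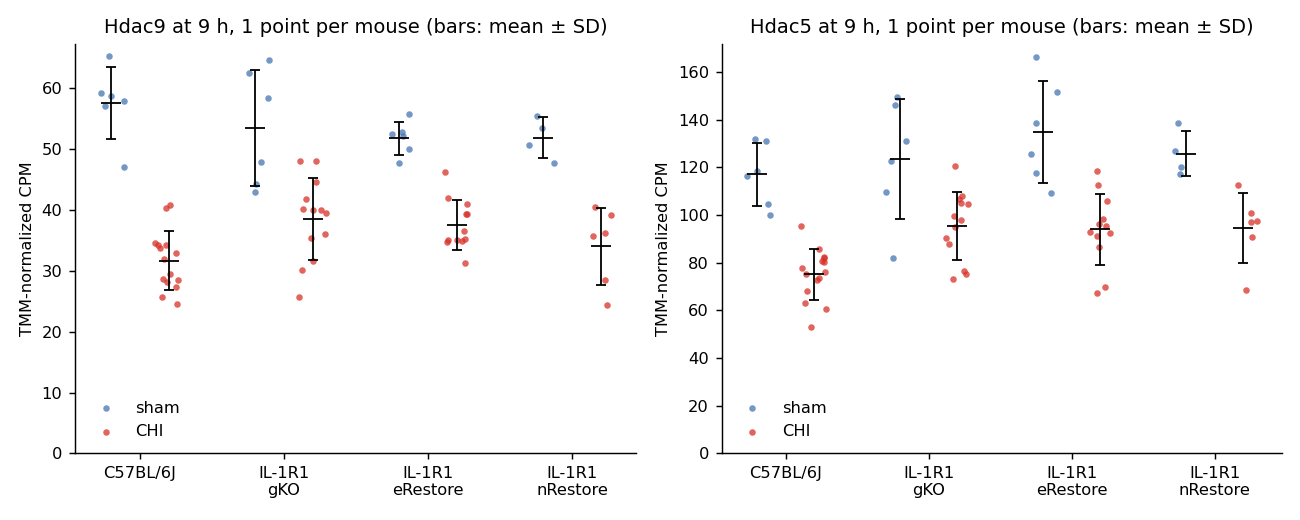
TMM-normalized CPM of Hdac9 (left) and Hdac5 (right) at 9 h by strain, with 1 point per mouse, sham in blue and CHI in red, and bars for the mean ± SD. For Hdac9 the red and blue points do not overlap in 3 strains on this scale, and 3 of 13 IL-1R1 gKO CHI mice lie within the sham range.

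Hdac4 and Hdac7, the remaining class IIa genes, showed no such difference. The log2 fold change of Hdac4 at 9 h lay between −0.10 and 0.05 in the 4 strains (−0.04 ± 0.04 over all strains). Hdac7, which is expressed in endothelium and lymphocytes, varied most between mice, with log2 fold changes from −0.44 ± 0.24 in IL-1R1 eRestore to 0.19 ± 0.17 in IL-1R1 nRestore mice. Its spread between mice of a group was 0.34 on the log2 scale, against 0.16 for Hdac9 and 0.17 for Hdac5.

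Among class I genes, Hdac8, an enzyme that deacetylates cohesin, was lower after CHI at 9 h in the mean CPM of all 4 strains. For IL-1R1 gKO mice this did not hold per length, as Hdac8 averaged 9.41 ± 2.43 TPM in CHI (n = 13) and 9.15 ± 1.34 TPM in sham mice (n = 6). Its mean CPM there was 7.88 ± 1.85 and 8.34 ± 0.814. In C57BL/6J mice its sham values were 7.35, 8.21 and 8.61 CPM (lowest, median and highest, n = 6) and its CHI values 5.71, 6.79 and 8.08 CPM (n = 15), and 12 of 15 CHI mice lay below all sham mice. The log2 fold change of Hdac8 was −0.25 ± 0.08 in C57BL/6J and −0.21 ± 0.05 over all strains. Hdac1, Hdac2 and Hdac3 had values over all strains of 0.10 ± 0.04, −0.04 ± 0.03 and 0.01 ± 0.03.

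Hdac6 (class IIb) had a log2 fold change of −0.06 ± 0.03 over all strains at 9 h. Hdac11 (class IV), abundant in neurons and oligodendrocytes, had 0.12 ± 0.05. In IL-1R1 gKO mice Hdac11 had sham values of 112.1, 130.9 and 147.9 CPM (n = 6) and CHI values of 121.4, 153.6 and 186.6 CPM (n = 13), with 8 of 13 CHI mice above all sham mice. In IL-1R1 nRestore mice its log2 fold change was −0.05 ± 0.09, smaller than its SE, so no direction is read there.

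Counts of members that passed an adjusted p of 0.05 in edgeR are set beside the share of all genes that did, and since the members were chosen on this contrast nothing is read from them. At 9 h 3 of 10 members passed in C57BL/6J mice (Hdac9, Hdac5 and Hdac8, all lower), where 14.1% of all genes did. The call of Hdac8 was lost in 8 of 14 alternatives, among them the fit without a filter on low counts, both experiments fitted alone and 5 of the 6 fits that left out a sham mouse. In IL-1R1 eRestore mice 2 passed (Hdac9 and Hdac5, against 7.34% of genes). By edgeR 0 passed in IL-1R1 gKO mice (0.199% of genes) and 0 in IL-1R1 nRestore mice (0.608%). At an unadjusted p under 0.05, 3 members passed in IL-1R1 gKO mice, as did 1784 of 16604 genes. In IL-1R1 nRestore mice 2 members and 2207 of 16788 genes did. DESeq2 called Hdac9 in each of these 2 strains, and its count over all genes is not given here. Over all strains 4 members passed, Hdac9, Hdac5 and Hdac8 lower and Hdac11 higher, where 23.9% of genes did, and the call of Hdac11 was lost without a filter on low counts and with RLE factors.

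Groups without overlap in CPM at 9 h were counted in the same way. They were found for 2 of 10 members in C57BL/6J mice, where 1.32% of all genes had such groups, and for 1 member in IL-1R1 eRestore mice (0.601% of genes). They were found for 2 members in IL-1R1 nRestore mice, where with 6 and 4 mice 5.05% of genes had them, and for 0 in IL-1R1 gKO mice (0.0783% of genes). The median log2 fold change of the 10 members over all strains was −0.05, against 0 for all genes tested.

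The 9 h difference was also compared within each experiment. Of the 8 pairs of strain and experiment that held both CHI and sham mice at 9 h, the mean log2 CPM of Hdac9 was lower after CHI in 8, by −0.37 to −0.87. For Hdac5 it was lower in 8, by −0.10 to −0.68, and for Hdac8 in 7 of 8. In C57BL/6J mice Hdac9 had −0.87 in both experiments (10 and 4 mice, and 5 and 2 mice). Hdac11 was higher after CHI in 7 of 8 pairs, with values from −0.04 to 0.39.

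**Figure D3:**
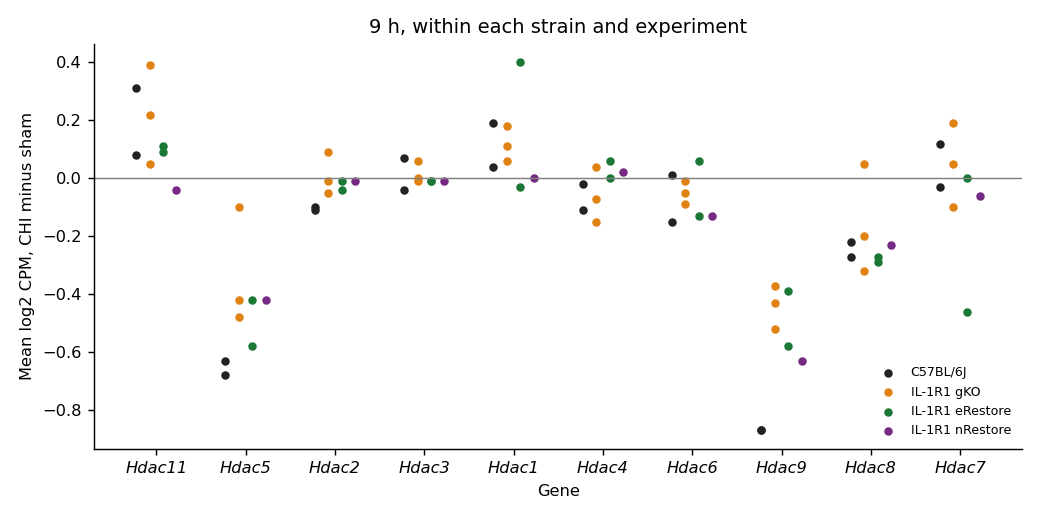
Difference of the mean log2 CPM between CHI and sham mice at 9 h for each member (horizontal axis), with 1 point for each strain and experiment, coloured by strain. All 8 points of Hdac9 and of Hdac5 lie below 0, and those of Hdac3 lie between −0.04 and 0.07.

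At 24 and 72 h the CHI and sham groups overlapped for all 10 members in every strain. Groups without overlap were rare among all genes too, at 0.0965% at 24 h and 0.0237% at 72 h in C57BL/6J mice. They made up 0.0767% and 0.012% in IL-1R1 gKO, 0.0545% and 0.0363% in IL-1R1 eRestore, and 0.129% and 0.327% in IL-1R1 nRestore mice. Hdac9 had log2 fold changes over all strains of −0.02 ± 0.04 at 24 h and −0.03 ± 0.03 at 72 h. Its CHI mice averaged 44.4 ± 4.31 CPM (SD, n = 43) at 24 h and 44.5 ± 4.13 CPM (n = 44) at 72 h, against 44.9 ± 4.77 CPM (n = 22) and 45.4 ± 4.11 CPM (n = 23) in sham mice. The lowest single value was that of Hdac4 in IL-1R1 gKO mice at 24 h, with a log2 fold change of −0.30 ± 0.08. There 10 of 12 CHI mice lay below all 6 sham mice. These CHI mice came from 3 experiments, of which only 2 held IL-1R1 gKO sham mice at 24 h. The CHI mice were aged 4.5 to 7.4 months and the sham mice 4.5 to 5.3 months. In the largest experiment alone the log2 fold change was −0.13, and the mean log2 CPM differed by −0.11 there (5 and 2 mice) and by −0.50 in the other experiment with both groups (2 and 4 mice).

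By edgeR 0 of 10 members passed in any of these 8 comparisons, 3 of the 80 tests had an unadjusted p under 0.05, and DESeq2 called 0. Among all genes, from 376 of 16709 (IL-1R1 gKO at 72 h) to 1504 of 16577 (C57BL/6J at 24 h) had such an unadjusted p. The share of all genes that passed the adjusted threshold at 24 h was 0.404% in C57BL/6J and 0.0059% in IL-1R1 gKO mice. It was 0% in IL-1R1 eRestore and 0% in IL-1R1 nRestore mice. At 72 h it was 0%, 0%, 0.00605% and 0.0121% in the same order. Over all strains 0 members passed at 24 h (1.48% of genes) and 0 at 72 h (0.706% of genes), and 0 by DESeq2. At an unadjusted p under 0.05 there were 2 members and 2581 of 18495 genes at 24 h. At 72 h there were 0 members and 1374 of 18408 genes.

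**Figure D4:**
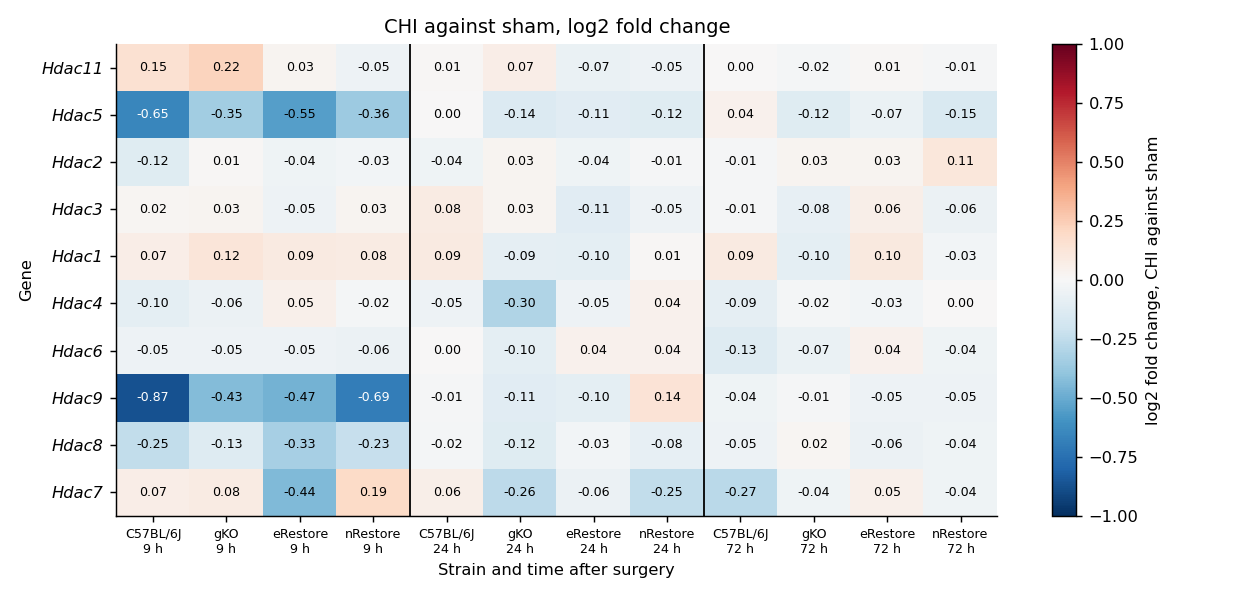
Log2 fold change of CHI against sham for each of the 10 members (rows) in each strain at 9, 24 and 72 h (columns), blue for lower and red for higher values after CHI. The blue cells of Hdac9 (−0.43 to −0.87) and Hdac5 (−0.35 to −0.65) stand in the 4 columns of 9 h.

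The CHI effect at 9 h was set against that at the later times in 1 fit of all mice. For Hdac9 the log2 difference was −0.57 ± 0.06 against 24 h (95% interval −0.70 to −0.45) and −0.57 ± 0.06 against 72 h. For Hdac5 it was −0.42 ± 0.07 (−0.56 to −0.29) and −0.45 ± 0.06, and for Hdac8 −0.19 ± 0.07 and −0.21 ± 0.07. In edgeR 2 members passed against 24 h, where 11.3% of all genes did, and 3 against 72 h (13.7%). The call of Hdac8 against 72 h was lost with gene-length offsets (−0.18) and in C57BL/6J mice alone (−0.21). These comparisons hold the contrast that chose the members and are a description.

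Sham mice of 9 h were set against sham mice of the later times, which came from other experiments. Strain and sex were covariates but age was not, so age is not separated from time in these differences. C57BL/6J sham mice, for example, were aged 4.4 to 4.8 months at 9 h, 4.8 to 5.93 at 24 h and 5.17 to 6.8 at 72 h. The 9 h sham mice belong to the contrast that chose the members, so these differences are given as a description without p-values. Hdac9 was higher in sham mice at 9 h (43 to 65.2 CPM, median 53.2, n = 22) than at 24 h (34.5 to 54.5, median 46.2, n = 22) or 72 h (35.9 to 53.7, median 45.5, n = 23). Of the 22 sham mice at 9 h, 10 lay above all 45 later sham mice. The log2 difference was 0.25 ± 0.05 against 24 h and 0.24 ± 0.05 against 72 h.

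The CHI mice at 9 h lay on the other side of the later sham mice for Hdac9. Of 46 CHI mice at 9 h, 19 lay below all 45 later sham mice and 43 below their median, whereas 42 lay below all sham mice of 9 h. The mean was 35.4 ± 6.05 CPM in CHI mice at 9 h, 53.8 ± 6.27 CPM in sham mice at 9 h and 45.2 ± 4.4 CPM in later sham mice.

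For Hdac5 the CHI and sham mice of 9 h both lay lower than later mice. Sham mice had a lowest, median and highest CPM of 82.1, 124.2 and 166.1 at 9 h, 122, 134.2 and 178.8 at 24 h, and 116.2, 130 and 177.7 at 72 h. The log2 difference of Hdac5 in sham mice was −0.15 ± 0.05 between 9 and 24 h and −0.14 ± 0.05 between 9 and 72 h. With gene-length offsets it turned to 0.13 and became −0.02, so the direction in sham mice depended on how length was treated. Of the 46 CHI mice at 9 h, 44 lay below all 45 later sham mice.

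Other class IIa members also differed between sham mice of 9 h and later. Hdac7 was lower at 9 h (4.69 to 15.1 CPM, median 10.3) than at 24 h (9.3 to 24.8, median 13.5), by −0.45 ± 0.11, and than at 72 h by −0.49 ± 0.10. Hdac4 was higher at 9 h than at 24 h by 0.13 ± 0.05, but by 0.02 with gene-length offsets, and its difference of 0.12 against 72 h turned to −0.05 with them.

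Of class I, Hdac8 was lower in sham mice at 9 h than at 24 h by −0.25 ± 0.05 and than at 72 h by −0.20 ± 0.05. Its sham values were 7.19 to 11 CPM at 9 h and 8.15 to 13.3 CPM later. Hdac1 and Hdac3 were each lower by −0.13 than at 24 h and differed from 72 h by −0.07 and −0.04. Hdac11 was lower at 9 h by −0.14 ± 0.04 and −0.11 ± 0.04.

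By edgeR 8 members, all but Hdac2 and Hdac6, passed between 9 and 24 h (2 higher and 6 lower at 9 h), where 45.9% of all genes did, and 6 between 9 and 72 h, where 44.8% did. Nothing is read from these counts. Between 24 and 72 h 0 members and 0% of genes passed. At an unadjusted p under 0.05 there were 2 members and 1205 of 18994 genes, and DESeq2 called 0 members.

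**Figure D5:**
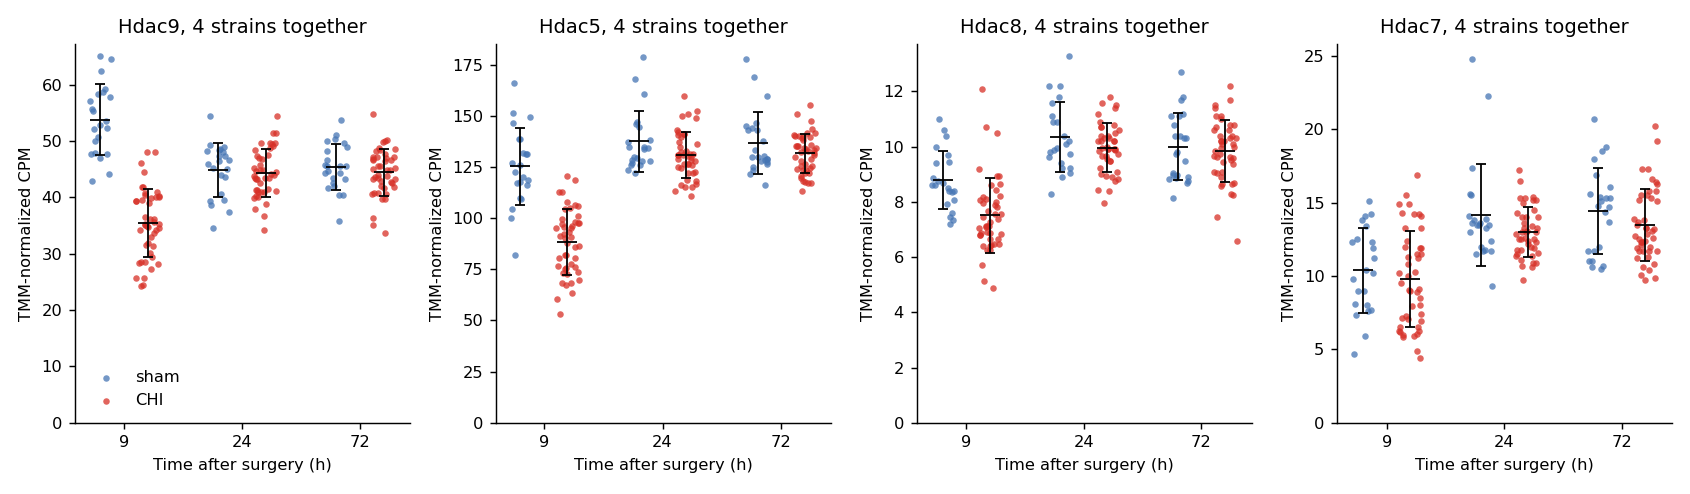
TMM-normalized CPM of Hdac9, Hdac5, Hdac8 and Hdac7 against time after surgery over all strains, with 1 point per mouse, sham in blue and CHI in red, and bars for the mean ± SD. At 9 h Hdac9 averages 53.8 CPM in sham and 35.4 CPM in CHI mice, while at 24 and 72 h both groups average 44.4 to 45.4 CPM.

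The CHI effect was compared between each strain and C57BL/6J. For Hdac9 at 9 h the log2 difference from C57BL/6J was 0.42 (95% interval 0.15 to 0.69) in IL-1R1 gKO, 0.39 (0.12 to 0.67) in IL-1R1 eRestore and 0.24 (−0.08 to 0.56) in IL-1R1 nRestore mice, positive where the reduction was smaller. For Hdac5 these differences were 0.29 (0 to 0.59), 0.12 (−0.18 to 0.41) and 0.21 (−0.14 to 0.56). As Hdac9 was chosen for its value in C57BL/6J at 9 h, its differences from that strain are given as a description.

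By edgeR 0 of 10 members passed in any of the 9 comparisons of strains, 8 of 90 tests had an unadjusted p under 0.05, and DESeq2 called 0. Among all genes, from 529 of 18408 (IL-1R1 gKO at 72 h) to 1608 of 18741 (IL-1R1 eRestore at 9 h) had such an unadjusted p. The 8 tests include those of Hdac9 at 9 h in IL-1R1 gKO and IL-1R1 eRestore mice. All these comparisons hold the contrast that chose the members, so nothing is read from the counts. Against C57BL/6J the share of all genes that passed the adjusted threshold at 9 h was 0% for IL-1R1 gKO. The share was 0.0107% for IL-1R1 eRestore and 0.00534% for IL-1R1 nRestore. It was 0.00541%, 0.0108% and 0% at 24 h, and 0%, 0% and 0.00543% at 72 h. Hdac4 at 24 h had the largest of the later differences with an unadjusted p under 0.05. It was −0.23 (−0.39 to −0.07) in IL-1R1 gKO against C57BL/6J and did not pass the adjusted threshold.

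The sexes were compared in the same mice. At 9 h the CHI effect on Hdac9 differed between females and males by −0.05 (95% interval −0.28 to 0.17) and that on Hdac5 by −0.07 (−0.30 to 0.15). In C57BL/6J mice the difference of mean log2 CPM between CHI and sham mice for Hdac9 was −0.83 in females (7 and 3 mice) and −0.90 in males (8 and 3 mice). By edgeR 0 of 10 members passed for this difference at 9, 24 or 72 h, where 0%, 0% and 0.00543% of genes did, with 0 of 30 tests at an unadjusted p under 0.05 and 0 by DESeq2.

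Levels in females and males were close. By edgeR 0 members passed between the sexes at any time, where 0.096% of genes passed at 9 h, 0.2% at 24 h and 0.125% at 72 h, with 0 of 30 tests at an unadjusted p under 0.05 and 0 by DESeq2. The log2 differences lay between −0.12 and 0.07. These include the X-linked members Hdac6 and Hdac8, which differed at 9 h by 0.05 (−0.02 to 0.11) and 0 (−0.10 to 0.10).

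Sham mice of the strains were compared over all times, with time and sex but neither age nor experiment as covariates. All IL-1R1 nRestore sham mice at 9 h came from an experiment without C57BL/6J mice, and those at 72 h were all male. Strain and experiment are thus partly confounded and are not separated here. The sham mice of 9 h, which belong to the contrast that chose the members, are included. The differences are therefore given as a description without p-values, and nothing is read from the counts. Hdac1 was higher in IL-1R1 gKO than in C57BL/6J mice by 0.16 ± 0.05, the 1 member that passed by edgeR, where 4.42% of all genes did. Without a filter on low counts it did not pass. Hdac3 was higher in IL-1R1 nRestore than in C57BL/6J mice by 0.19 ± 0.05, the 1 member that passed, where 14.5% of genes did. Between IL-1R1 eRestore and C57BL/6J mice 0 members passed by edgeR (4.29% of genes) and 0 by DESeq2. At an unadjusted p under 0.05 there was 1 member, beside 2981 of 18994 genes. Hdac9 differed from C57BL/6J sham mice by −0.03, 0.03 and 0 in the 3 strains.

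Across the 24 group means, the genes whose log2 CPM followed Hdac9 most closely, among 15722 others tested in all comparisons, were Lasp1 (Pearson's r = 0.913), Drp2 (0.90), Gria4 (0.867), Brinp3 (0.865) and Nwd2 (0.86). Groups of one experiment and time share mice handled together, so these values only describe the groups. Of the other members, Hdac5 stood nearest to Hdac9 (r = 0.682) and Hdac11 farthest (r = −0.399). Within the family, Hdac8 and Hdac5 were most alike over the 24 groups (r = 0.90), followed by Hdac8 and Hdac7 (0.83) and Hdac5 and Hdac7 (0.77).

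The other genes of the pathway were taken from lists chosen with earlier results of these data known. Their values at 9 h are of the contrast that chose the family, and are given as a description without p-values. Of 76 such genes (other deacetylases, corepressor complexes, acetyltransferases, acetyl-lysine readers, MEF2 factors and the kinases and adaptors of class IIa enzymes), 75 were tested. At 9 h over all strains 6 rose and 7 fell, or 17.3% of them against 23.9% of all genes, and their median log2 fold change was 0. By edgeR 0 passed at 24 or 72 h.

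The kinases and adaptors of class IIa enzymes held most of the genes that passed at 9 h, with 3 that rose and 5 that fell among 15. Sik1, a salt-inducible kinase that phosphorylates class IIa deacetylases, fell by 0.62 ± 0.10 and Sik2 by 0.19 ± 0.06. Of the calcium-dependent kinases, Camk1d rose by 0.27 ± 0.04 and Camk4 fell by 0.22 ± 0.06. Prkd3, a protein kinase D, fell by 0.22 ± 0.04, and the adaptor Ywhah rose by 0.16 ± 0.05.

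Of 3 MEF2 factors tested, Mef2d rose by 0.21 ± 0.04. The complexes that contain class I enzymes held 4 of the genes that passed. Rbbp7, a histone-binding subunit of NuRD and Sin3, rose by 0.14 ± 0.03, 1 of 11 in the NuRD list. In the Sin3 list 0 of 11 passed, and in the CoREST list 0 of 5. Mideas, a scaffold of the mitotic deacetylase complex, rose by 0.18 ± 0.06, 1 of 5 in the list of the MIER and mitotic complexes. In the NCoR and SMRT list 2 of 5 fell, Tbl1x by 0.10 ± 0.03 and Tbl1xr1, named after its value was seen, by 0.09 ± 0.03. By edgeR 0 of 8 other deacetylases (Hdac10 and the sirtuins), 0 of 9 acetyltransferases and 0 of 3 acetyl-lysine readers passed, and Hdac10 had 0.05 ± 0.10.

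Markers of brain cell types were read beside the 9 h comparison over all strains, since in a whole hemisphere fewer cells of a type and less RNA per cell cannot be told apart. Of 8 neuronal markers 1 rose and 1 fell, and their summed level ran from 6227.6 to 8311.7 TPM in sham and from 5388.9 to 9150.5 TPM in CHI mice. Of 6 microglial markers 4 fell, with sums of 222.3 to 442.8 TPM in sham and 150.4 to 401.8 TPM in CHI mice. All 4 markers of choroid plexus and ependyma fell, with sums of 11.2 to 6121.7 TPM in sham and 7.64 to 2475.2 TPM in CHI mice.

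Of 6 astrocyte markers 2 rose, of 6 endothelial markers 2 rose and 1 fell, of 4 mural markers 1 rose, of 3 oligodendrocyte precursor markers 1 rose, and of 6 oligodendrocyte, 2 erythrocyte and 1 leukocyte markers 0 passed. The part of these differences in the members' values was not tested.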

How the data were processed

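Libraries were made from poly(A) RNA and read from both ends; the authors trimmed the reads, ran STAR on GRCm39 and estimated abundances with Salmon, using nf-core/rnaseq. Estimated counts (reads that Salmon assigned to each gene, not normalized for depth or length) were deposited as a gene table, beside a deposited table of TPM values (scaled within each mouse for transcript length and library size). The annotation release behind the tables is not given in the sources used here. Intervals and standard errors rest on the spread between mice. Reads carry no molecular identifiers.

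Each mouse is its own sample in the labels, and groups, sex, age and experiment came from the labels. For testing, the estimated counts were rounded to whole numbers and fitted by edgeR 4.0.16 under R 4.3.3, with TMM factors and the robust quasi-likelihood F test. A gene was kept if 10 or more counts were found in a number of mice equal to the smallest group (4 to 6 in the 12 comparisons by strain and time). Sex and age were covariates, except that age was left out of the fit of sham mice alone. Strain was added where strains were fitted together, and p-values were adjusted by Benjamini–Hochberg over all genes tested, with a threshold of 0.05. DESeq2 1.42.0, with and without gene-length offsets from the ratio of counts to TPM, served as an alternative, whereas the authors used DESeq2 with such offsets. The fit was tested on counts simulated for the C57BL/6J mice at 9 h. It recovered 97 of 100 genes changed by 1 on the log2 scale and 69 of 100 changed by 0.5. Smaller groups were not simulated, so a member that did not pass may still have differed. CPM values were scaled by TMM factors, with a prior count of 2 on the log2 scale.

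The members, gene lists and alternatives were chosen with earlier results of these data known. All members are described, with the pathway genes of the 10 smallest p at 9 h over all strains among those that passed, and the 5 genes most like Hdac9. Markers of neurons, astrocytes, microglia, oligodendrocytes and their precursors, endothelium, mural cells, choroid plexus and ependyma, leukocytes and erythrocytes were read beside them.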

Additional observations from a re-analysis of the deposited data

Results flagged for a closer look

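The effect of CHI was flagged as differing between time points. For Hdac9 the log2 difference of the effect was −0.57 between 9 and 24 h and −0.57 between 9 and 72 h. For Hdac5 it was −0.42 and −0.45, and for Hdac8 −0.21 between 9 and 72 h. These differences passed the threshold in edgeR, although that of Hdac8 did not pass with gene-length offsets or in C57BL/6J mice alone. They hold the contrast on which the family was chosen, and the times come from different experiments.

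Single mice stood apart in 7 of the 160 combinations of member and group of 4 to 10 mice that were examined, where chance flags about 1 in 20, or 8. On the log2 CPM scale, Hdac1 had a low value of 4.06 in an IL-1R1 gKO sham mouse at 9 h (nearest 4.33) and Hdac6 one of 4.84 in another such mouse (nearest 5.10). Hdac2 had a high value of 6.37 in an IL-1R1 nRestore sham mouse at 9 h (nearest 6.27). Hdac5 had a high value of 7.24 in an IL-1R1 eRestore CHI mouse at 24 h (nearest 7.03), and Hdac7 a low value of 3.23 in an IL-1R1 eRestore sham mouse at 24 h (nearest 3.74). In C57BL/6J sham mice at 72 h, Hdac9 had a high value of 5.65 (nearest 5.49) and Hdac11 one of 7.39 in another mouse (nearest 7.20).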

How the results depend on the processing

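The count of members that passed was unchanged, or within 1.5 times, in 222 of 234 combinations of comparison and setting, and in 93 of 96 fits that left out a mouse. The members called were the same in 209 of the 234 combinations and in 88 of the 96 fits. In IL-1R1 eRestore mice at 9 h it was 0 in the largest experiment alone (8 and 3 mice) instead of 2. In IL-1R1 gKO mice at 9 h it was 1 with DESeq2 size factors, 2 with gene-length offsets and 1 in the third experiment by itself instead of 0. In IL-1R1 nRestore mice at 9 h it was 1 with DESeq2 size factors, 1 with gene-length offsets, 1 with experiment in place of age, 2 without a filter on low counts and 1 without sex or age as covariates instead of 0, and it ran from 0 to 1 when each mouse was left out. It was 1 there without CHI replicate 2, CHI replicate 4 or sham replicate 2. Over all genes, 12 to 217 were called in the fits that left out a mouse there. In IL-1R1 gKO against C57BL/6J sham mice the count of members was 2 with DESeq2 size factors and 0 without a filter instead of 1. In IL-1R1 nRestore against C57BL/6J sham mice it was 3 with gene-length offsets instead of 1. The share of all genes called under each other setting is not given here, so nothing is read from these counts of members. With gene-length offsets Hdac5 turned to 0.13 between sham mice of 9 and 24 h, and Hdac4 to −0.05 between sham mice of 9 and 72 h; the cause was not tested beyond the effective lengths given above. In C57BL/6J mice alone the 9 h effect on Hdac9 differed from 24 h by −0.87 and on Hdac5 by −0.60. Fits of the other experiments alone were added after the data were seen. No paired analysis was possible because the labels give groups no shared replicate numbers to match single mice. Experiment, which most but not all CHI mice share with sham mice of their strain and time, was fitted as a term in place of age. The calls it changed were that of Hdac9 named above for IL-1R1 nRestore mice, all from 1 experiment at 9 h, and no others. At 24 h some CHI mice of each IL-1R1 strain came from an experiment without sham mice of that strain. Surgery, experiment and age are thus partly confounded in those comparisons.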
